A study of Homo sapiens with 8 samples.

Results

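Interferon-stimulated genes are the genes that cells switch on after an interferon binds its receptor. The set described here held 49 such genes, which were given as a list of names, and all 49 were present among the 20531 genes of the tables. Of these, 39 had a scaled read count of at least 10 in 1 or more of 8 libraries and enter the counts below, and 10 did not. Of the 39, 5 reached 10 in 1 library only, so that the filter itself favoured a change in comparisons with that library. The library was SKBR-3 with lapatinib for OAS2 and UBE2L6 and BT474m1 with lapatinib for IFIT2. It was BT474m1 with DMSO for CMPK2 and BT474m1 with both drugs for IFIT1. Among all genes, 14429 passed the same filter.

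The receptors pass the signal through the kinases JAK1 and TYK2 to STAT proteins, and STAT2 joins IRF9 in a complex that binds a short promoter sequence, the interferon-stimulated response element. The products sense foreign RNA, degrade or sequester it, block the entry of viruses, attach the ubiquitin-like protein ISG15 to other proteins, and limit the response itself. Many tumour cell lines express a portion of the set without added interferon.

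Poly(A) RNA was sequenced from a pair of HER2+ breast carcinoma lines, SKBR-3, which is negative for the estrogen and progesterone receptors, and BT474m1, a subline of BT474 that has both. Cultures received vehicle (DMSO), lapatinib at 300 nM, which blocks the kinase activity of EGFR and HER2, JQ1 at 300 nM, which displaces BET proteins from acetylated chromatin, or both drugs at these doses, all for 48 h, which gave 8 groups with 1 library each. The labels name no interferon treatment for any group.

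There were no replicates against which to set a difference, and p-values are therefore absent throughout. The 95% intervals in brackets after a log2 fold change come from the reads of the 2 libraries and cover counting error only. The values are read counts that the authors scaled to an upper quartile of 1000, and are called units. One read was worth between 0.471 and 0.766 units, and a floor of 3 reads stood for 1.41 to 2.30 units, depending on the library. A log2 fold change is the difference of log2(value + 1), and a change is counted where it reached 2-fold. The intervals are for the ratio of the scaled reads without the added 1, and for scarce genes the printed change is therefore the smaller of these quantities. Because each library was made from a whole culture, fewer cells with a transcript and less transcript per cell cannot be told apart.

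Depth ran from 21420113 to 34112379 reads on genes. EPCAM and ERBB2, 2 of the 6 luminal epithelial markers, were no lower than 3299.7 units in any library, whereas CDH1 (E-cadherin) was between 2.58 and 15.1 units in SKBR-3 against at least 19413.5 in BT474m1. ERBB2 went from 112656 to 277859 units in SKBR-3 with lapatinib. The other 3 luminal markers were raised at least 2-fold by JQ1 in SKBR-3, KRT8 from 59145 to 211202 units, KRT18 from 27539 to 97486 and KRT19 from 70271 to 194265. With both drugs 4 of the 6 were raised there, and no treatment changed any of the 6 by as much in BT474m1. The 7 leukocyte markers summed to between 2.06 and 20 units in SKBR-3 and between 17.4 and 86.7 in BT474m1. PTPRC, the defining leukocyte marker, lay between 0 and 3.38 units. LYZ made up 80.7 of the 86.7 units in the lapatinib library of BT474m1 and 71.1 of the 77.0 units with both drugs, against 11.8 with DMSO. Of the fibroblast markers, COL1A1 was at 124 units in SKBR-3 and 1253 in BT474m1 with DMSO, while COL1A2 did not exceed 1.75 units in any library and LUM was at 0. In the lapatinib, JQ1 and combination libraries COL1A1 read 35.2, 81.2 and 24.1 units for SKBR-3, and the BT474m1 values were 1211, 394 and 337. Of the 3 endothelial markers, PECAM1 did not exceed 0.583 units, whereas CDH5 and VWF were lower with JQ1. CDH5 went from 126 to 20 units in SKBR-3 and was at 36.3 and 3.86 in BT474m1. VWF went from 22.9 to 1.93 units in SKBR-3 and was at 153 and 11.1 in BT474m1. With lapatinib the BT474m1 values were 0 for CDH5 and 30.7 units for VWF, and those of SKBR-3 were 71.2 and 24.5. The part of these markers in the results below was not tested.

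The promoters of the members were searched for the response element. Its letters were not used to choose the set, but the members are known interferon-stimulated genes, so that a high share was to be foreseen. RefSeq promoter windows of GRCh38.p14, from 250 bases before to 50 after the start site, were found for 39 members. IRF7, DHX58, OAS2, OASL, IFIT2, IFITM2, MX2, GBP2, USP18 and TRIM22 had none. The element was searched on both strands as TTTC, any 2 letters and TTTC again, which reads as GAAA, 2 letters and GAAA on the other strand, and overlapping matches were counted. They were found in 26 of the 39 members (66.7%), compared with 1195 of all 27305 genes with a window (4.38%). The share was 20 of 30 among members that passed the filter on expression and 6 of 9 among those that did not. A single match was found in 10 members and 2 or more in 16, where a match that lay in overlapping windows of 1 gene was counted once. The gamma-activated site, which STAT dimers bind, was searched only in the strict form TTCCNGGAA, so that looser forms were not counted. It was found in BST2, PARP14 and IFI27, 3 of 39 (7.69%), against 1.44% of all genes. A match is a description of the letters and not evidence of binding.

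The following stretches, written 5′ to 3′ on the strand of the gene with each match in capitals, are examples. SAMD9, OAS3, IFI6 and PARP14 have a match and are described in full below. Other members with a match that were called in both lines are not printed. The PARP9 neighbour DTX3L and the widely used marker genes ISG15 and IFIT1 were added for comparison. SAMD9 (chr7:93118091-93118130, minus strand) and PARP14 (chr3:122680795-122680834, plus strand) have 1 match each. OAS3 (chr12:112938316-112938473, plus strand) has 2 matches far apart. IFI6 (chr1:27672261-27672363, minus strand) has 3, of which 2 lie in a repeated stretch. In DTX3L (chr3:122564322-122564351, plus strand) the match crosses the start site. ISG15 (chr1:1013369-1013414, plus strand) has overlapping matches, and IFIT1 (chr10:89392492-89392544, plus strand) has 2 that read as TTTC on the strand of the gene, whereas the others shown read as GAAA.
SAMD9: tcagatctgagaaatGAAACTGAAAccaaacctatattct
PARP14: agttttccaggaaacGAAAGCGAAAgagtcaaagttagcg
OAS3: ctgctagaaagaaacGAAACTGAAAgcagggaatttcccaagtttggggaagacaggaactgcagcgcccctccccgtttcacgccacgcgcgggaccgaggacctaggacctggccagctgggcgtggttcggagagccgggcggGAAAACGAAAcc
IFI6: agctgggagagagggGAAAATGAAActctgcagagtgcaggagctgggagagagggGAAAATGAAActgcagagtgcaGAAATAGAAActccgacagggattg
DTX3L: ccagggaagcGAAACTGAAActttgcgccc
ISG15: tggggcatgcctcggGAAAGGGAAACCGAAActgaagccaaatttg
IFIT1: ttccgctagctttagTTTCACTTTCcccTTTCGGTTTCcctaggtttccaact

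**Figure D1:**
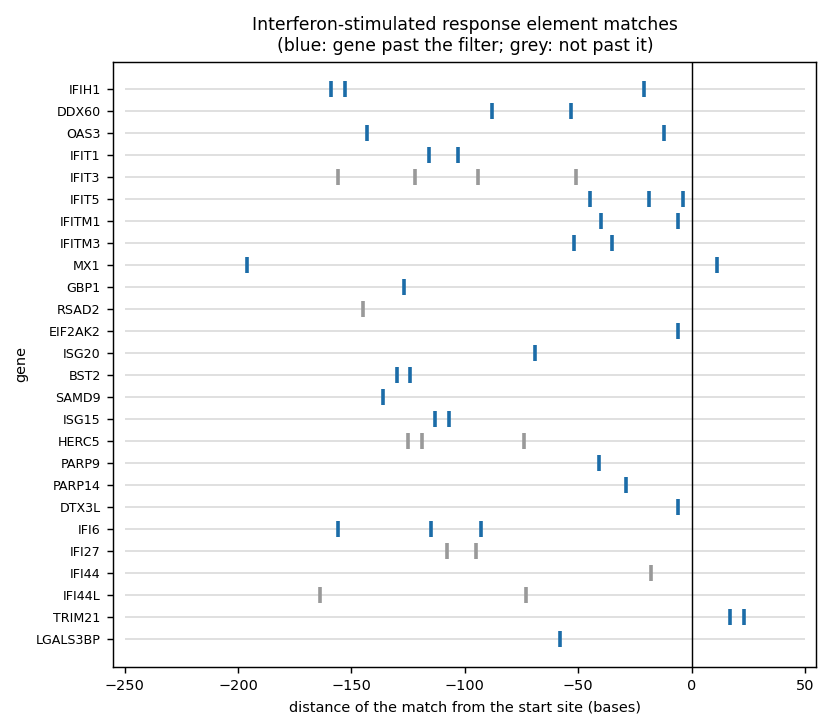
Each tick is 1 match to the response element (once where windows overlap), placed by the distance of its first base from the start site in bases, in the 26 members with a match, and grey lines span the window searched. Most ticks lie before the start site, and genes that passed the expression filter (blue) and those that did not (grey) both hold them.

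The first question was which members these lines expressed without drug. With DMSO, the median of the 39 members was 34.4 units in SKBR-3 and 93.8 in BT474m1, compared with 350 and 408 units over all 14429 genes. Of the members, 12 reached 100 units in SKBR-3 and 19 did in BT474m1. Per kilobase of the canonical transcript, LGALS3BP, a secreted glycoprotein, was highest in SKBR-3 at 4128 units per kilobase, and USP18, the protease that removes ISG15, was highest in BT474m1 at 339. The members ranged widely. With DMSO, IFIH1 was at 709 units in SKBR-3 and 505 in BT474m1, EIF2AK2 at 847 and 785, and STAT2 at 591 and 631. Other members were close to 0. RSAD2, an antiviral enzyme, had no read in SKBR-3 and at most 8.49 units in BT474m1. IFI44L had no read in any library, and IFI44, XAF1 and IFI16 did not exceed 4.82 units. The other members that did not pass the filter were OASL, IFIT3, SAMD9L, HERC5 and IFI27, of which HERC5, a ligase for ISG15, came closest with 9.64 units in BT474m1 with lapatinib. ISG15 itself lay between 4.83 and 24.3 units across the 8 libraries, and MX1, a GTPase that traps viral nucleocapsids, between 1.93 and 35.4.

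**Figure D2:**
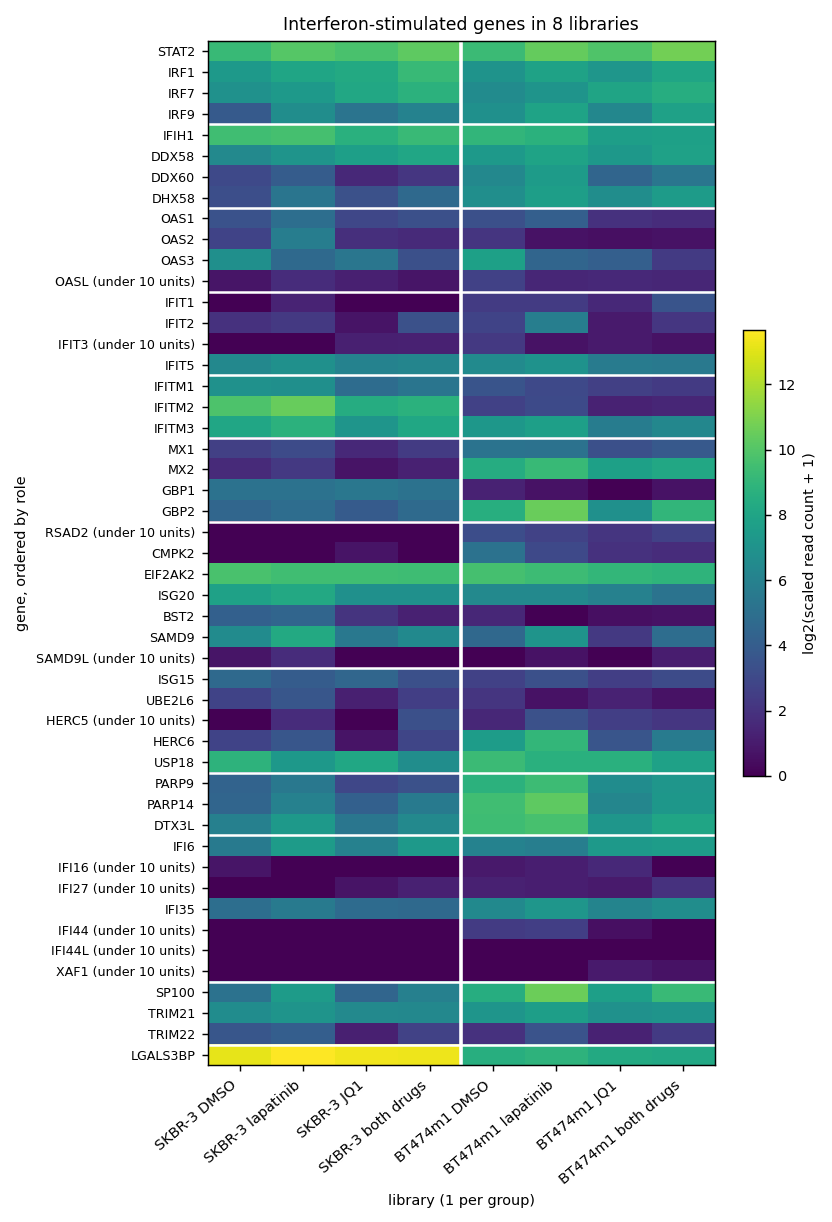
Colour gives log2(scaled read count + 1) of the 49 members (rows, ordered by role, with white lines between roles) in the 8 libraries (columns). LGALS3BP stands out in the 4 SKBR-3 libraries, MX2 and the PARP9 group in BT474m1, and 10 members stay under 10 units in all libraries.

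The interferons themselves were hardly detected. Of 21 ligand genes of types I, II and III, 4 had a value above 0 in any library, and the highest was IFNE at 1.38 units in SKBR-3 with both drugs. IFNB1 and IFNG had no read in any of the 8 libraries, which allows at most 2.30 units each. All 6 receptor genes and all 3 receptor kinases passed the filter. JAK1 ranged from 2175 to 6522 units. JAK2 was at 258 units in SKBR-3 and 3.30 in BT474m1 with DMSO.

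With DMSO the lines differed in which members they expressed. Of the 39 members, 14 were higher in BT474m1 by 2-fold or more and 9 were lower by as much, while 26.8% and 15.6% of all genes were. The intervals of all 23 excluded no change. CMPK2, among the 14, had passed the filter only through the BT474m1 library of this comparison. With the filter at 100 units, 5 of the 28 members left were lower, beside 13.8% of all genes. The median log2 difference of the members was 0.41, and that of all genes 0.21. All 3 genes of the PARP9 group were higher in BT474m1, as were MX1, MX2 and GBP2 of the 4 large GTPases, whereas IFITM1 and IFITM2 of the 3 IFITM genes were lower.

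MX2, a GTPase of the nuclear envelope that acts against retroviruses, differed most among the members higher in BT474m1. In SKBR-3 it read 2.15 units (3 reads) in the DMSO library, 3.83 in the lapatinib library, 0.644 in the JQ1 library and 1.38 in that of both drugs. The BT474m1 values were 347, 587, 216 and 290 units in the same order. Thus every BT474m1 library was far above every SKBR-3 library, and the log2 difference with DMSO was 6.79 [5.79, 9.62].

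PARP14, an ADP-ribosyltransferase, read 20.8, 63.6, 17.4 and 46.1 units in SKBR-3 with DMSO, lapatinib, JQ1 and both drugs. In BT474m1 it read 697, 1254, 76.3 and 150 units. With DMSO the log2 difference was 5.0 [4.54, 5.65], although the JQ1 library of BT474m1 came close to the lapatinib library of SKBR-3. PARP9, a partner of the ubiquitin ligase DTX3L, was at 19.3, 42.9, 6.44 and 9.63 units in SKBR-3 and at 446, 654, 101 and 146 in BT474m1. DTX3L, chosen after its values were seen, was at 60.1, 164, 40.6 and 85.3 units in SKBR-3 and at 686, 832, 143 and 262 in BT474m1. The 3 genes lie within 203 kb on chromosome 3 (GRCh38.p14, 122527924 to 122730840). PARP9 and DTX3L are read in opposite directions, and the second start site of PARP9 lies 38 bases from that of DTX3L, so that the match shown above for DTX3L also falls in a PARP9 window. The use of strand in the counting is not given in the sources used here, and reads where PARP9 and DTX3L overlap may not be separable.

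HERC6, a relative of the ISG15 ligase HERC5, was at 5.73, 11.5, 0.644 and 6.19 units in SKBR-3, at most 15 reads. It was at 188, 532, 11.1 and 50.7 units in BT474m1. The neighbouring HERC5 did not pass the filter in either line. GBP2, an interferon-inducible GTPase, was at 22.2, 28.3, 14.2 and 25.5 units in SKBR-3 and at 383, 1464, 116 and 504 in BT474m1. Its neighbour GBP1 on chromosome 1 went the other way, with 35.1 units in SKBR-3 and 1.45 in BT474m1 with DMSO, a value chosen after it was seen.

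The members lower in BT474m1 were led by IFITM2, one of the IFITM membrane proteins that block virus entry. It was at 905, 1414, 354 and 427 units in SKBR-3 and at 5.28, 7.31, 1.5 and 1.79 in BT474m1, a log2 difference of -7.17 [-8.45, -6.60] with DMSO. IFITM1 was at 121, 109, 27.7 and 38.7 units in SKBR-3 and at 10.7, 7.08, 5.04 and 3.92 in BT474m1. The IFITM3 values differed less, at 268, 431, 137 and 279 units in SKBR-3 and 149, 208, 51.9 and 79.4 in BT474m1. These 3 genes lie within 13.0 kb on chromosome 11 and resemble each other in sequence, and their estimates were not whole numbers of reads, so that reads shared between them are uncertain.

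LGALS3BP was the most abundant member in SKBR-3, at 9089, 12963, 10713 and 10108 units, against 377, 462, 315 and 296 in BT474m1. No treatment changed it 2-fold in either line. ISG20, an RNA exonuclease, was at 226, 302, 117 and 114 units in SKBR-3 and at 84.4, 84.9, 63.3 and 36.2 in BT474m1. Its log2 difference between the lines with DMSO was -1.41 [-1.70, -1.15].

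**Figure D3:**
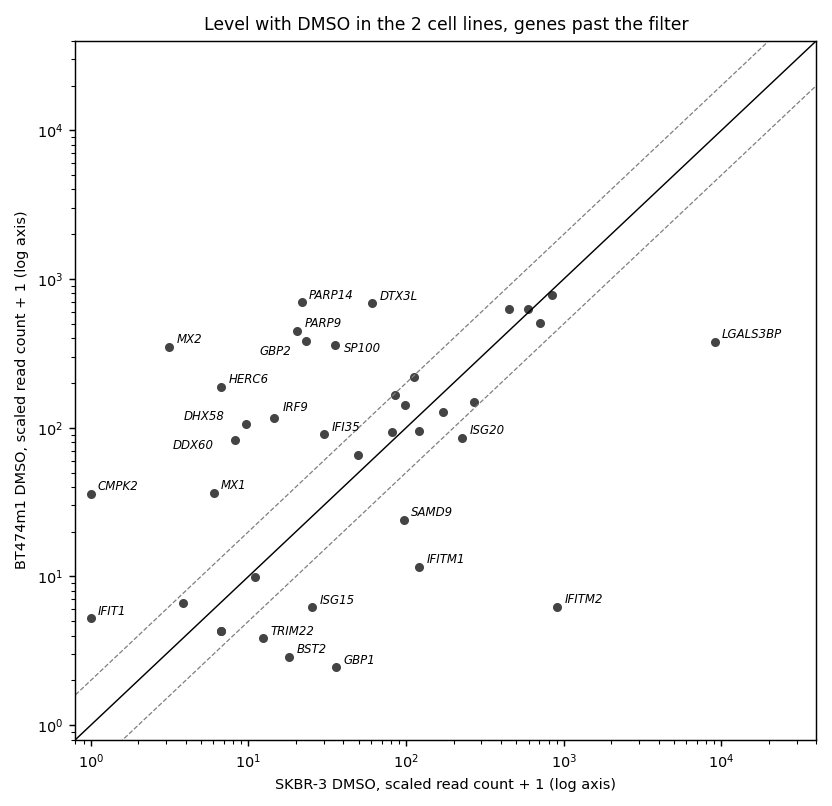
Scaled read count + 1 of the 39 members with DMSO in BT474m1 (log axis) against SKBR-3 (log axis), with equality (solid line) and 2-fold differences (dashed lines), 1 library each. MX2, PARP14 and PARP9 lie above the lines and IFITM2 and LGALS3BP below, with log2 differences from 6.79 to -7.17.

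The effect of lapatinib was examined next. In SKBR-3, lapatinib raised 11 of 39 members at least 2-fold and lowered 2, where 11.1% of all genes were raised and 9.44% lowered. In BT474m1 it raised 9 and lowered 5, against 14.0% and 8.06% of all genes. The members' median log2 fold change was 0.62 in SKBR-3 and 0.49 in BT474m1, and the median of all genes was 0.05 and 0.07. Without the 2-fold limit, the lapatinib library was the higher for 32 of the 39 members in SKBR-3 and for 26 in BT474m1, beside 53.0% and 54.5% of all genes. Of the SKBR-3 risers, IFIT1 rested on 0 and 2 reads. OAS2 among these risers and IFIT2 among those of BT474m1 had passed the filter only through the lapatinib library of that line. CMPK2, lowered in BT474m1, had passed it only through the DMSO library. Of the 5 members lowered in BT474m1, OAS2, BST2 and UBE2L6 had 7 reads or fewer with DMSO, and 2 of the 5 had an interval that excluded no change. MKI67, a marker of cycling cells, fell with lapatinib, from 8462 to 538 units in SKBR-3 and in BT474m1 from 2740 to 54.8, and its part in these changes was not tested.

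IRF9, SAMD9 and SP100 rose at least 2-fold with lapatinib in both lines, as did 4.39% of all genes. IRF9, the DNA-binding partner of STAT2, read 13.5 units in the DMSO library of SKBR-3, 102 in the lapatinib library, 37.9 in the JQ1 library and 66.0 in that of both drugs. In BT474m1 the values were 115, 239, 79.2 and 225 units. The lapatinib library was the highest of the 4 in each line, with log2 fold changes of 2.83 [2.21, 3.68] and 1.04 [0.82, 1.29].

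SAMD9, a cytoplasmic antiviral factor, was at 95.9, 316, 43.8 and 90.1 units in SKBR-3 with DMSO, lapatinib, JQ1 and both drugs. It was at 23.1, 131, 3.86 and 28.0 units in BT474m1. Lapatinib raised it by 1.71 [1.44, 2.01] and 2.46 [2.05, 2.98] on the log2 scale, JQ1 lowered it at least 2-fold in both lines, and with both drugs it was near the DMSO value, at -0.09 [-0.45, 0.27] and 0.27 [-0.33, 0.88].

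SP100, a component of nuclear bodies that restricts viral gene expression, was likewise highest with lapatinib and lowest with JQ1 in both lines. Its values were 34.4, 181, 20.6 and 60.5 units in SKBR-3 and 359, 1546, 211 and 602 in BT474m1. The log2 fold changes with lapatinib were 2.36 [1.94, 2.87] and 2.10 [1.99, 2.23]. With both drugs the values lay between those of DMSO and lapatinib in both lines.

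OAS3 fell where these genes rose. It belongs to the oligoadenylate synthetases, which make the signal that activates RNase L, and was the only member lowered at least 2-fold in both lines by lapatinib, by JQ1 and by both drugs. Lapatinib lowered 4.15% of all genes in both lines. OAS3 read 112, 24.5, 39.9 and 8.94 units in SKBR-3 and 218, 21.1, 16.9 and 4.08 in BT474m1. With both drugs 13 reads were left in SKBR-3 and 7 in BT474m1, log2 fold changes of -3.50 [-4.58, -2.83] and -5.43 [-7.06, -4.69]. Its neighbours on chromosome 12 were scarce. OAS1 did not exceed 29.9 units, and OAS2 had a peak of 55.1 units (72 reads) in SKBR-3 with lapatinib and no more than 5.73 in any other library.

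All 3 genes of the PARP9 group rose with lapatinib in SKBR-3, by 1.11 to 1.57 on the log2 scale. In BT474m1 the same genes were higher by 0.28 to 0.85 and none reached 2-fold. IFI6, a mitochondrial protein that delays cell death, was at 48.7, 178, 63.1 and 162 units in SKBR-3 and at 65.1, 56.6, 167 and 186 in BT474m1. The high libraries were therefore the 2 with lapatinib in SKBR-3 and the 2 with JQ1 in BT474m1. GBP2 rose by 1.93 [1.82, 2.05] with lapatinib in BT474m1 and was higher by 0.34 [-0.38, 1.09] in SKBR-3. The RNA helicase DHX58, chosen after its values were seen, went from 8.59 to 38.3 units in SKBR-3 with lapatinib, and the BT474m1 values were 105 and 198. IFIT2, an RNA-binding protein also chosen in this way, went from 5.66 to 56.6 units in BT474m1 and from 2.86 to 3.83 in SKBR-3. Differences between the lines in these responses were not tested.

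JQ1 gave the opposite balance. In SKBR-3, 3 of 39 members were raised and 12 lowered at least 2-fold, where 3.75% of all genes were raised and 11.8% lowered. In BT474m1, 2 were raised and 17 lowered, against 4.81% and 11.8% of all genes. The members' median log2 fold change was -0.61 in SKBR-3 and -0.88 in BT474m1, and that of all genes -0.08 and -0.06. In SKBR-3 the count of lowered members rested partly on scarce genes, since 8 of the 12 had an interval that excluded no change and 4 were counted with a pseudocount of 10, a setting at which 6.47% of all genes were lowered. In BT474m1, 14 of the 17 had such an interval, and the median was -0.49 with a pseudocount of 10. CMPK2, among the 17, had passed the filter only through the DMSO library.

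The 8 members lowered in both lines were DDX60, OAS3, IFIT2, IFITM2, MX1, SAMD9, HERC6 and PARP9, and 5.31% of all genes were lowered in both. For 4 of the 8 the interval included no change in 1 of the lines, namely DDX60, IFIT2 and MX1 in SKBR-3 and IFITM2 in BT474m1. In BT474m1 the PARP9 group fell together, PARP14 by 3.17 on the log2 scale, DTX3L by 2.25 and PARP9 by 2.14. HERC6 went from 399 to 23 reads there, a log2 fold change of -3.96 [-4.76, -3.48]. GBP2 was at -1.71 [-1.93, -1.51] in BT474m1. IFIH1, the RNA sensor MDA5, changed by -0.79 [-0.94, -0.65] in SKBR-3 and -1.33 [-1.5, -1.17] in BT474m1, although it was among the highest members, with 709 units in SKBR-3 and 505 in BT474m1 with DMSO. EIF2AK2, the kinase that halts translation on double-stranded RNA, stayed between 479 and 847 units in all libraries and did not reach a 2-fold change in any comparison.

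None of the 4 transcription factors was among the members lowered 2-fold by JQ1, and IRF9 was at 1.43 [0.72, 2.31] in SKBR-3 and -0.54 [-0.84, -0.25] in BT474m1. IRF7, the factor that amplifies interferon production, was the only member raised at least 2-fold by JQ1 in both lines, beside 1.16% of all genes. It read 120, 167, 296 and 433 units in SKBR-3 with DMSO, lapatinib, JQ1 and both drugs, and 93.8, 132, 248 and 366 in BT474m1. The order of the 4 libraries was the same in the 2 lines, with log2 fold changes for JQ1 of 1.30 [1.05, 1.57] and 1.39 [1.17, 1.65].

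STAT2 was the most abundant of the 4 factors, at 591, 1071, 849 and 1221 units in SKBR-3 and 631, 1401, 939 and 1696 in BT474m1. IRF1, a factor induced early by interferon, was at 170, 262, 312 and 581 units in SKBR-3 and 127, 229, 143 and 261 in BT474m1. Both factors were lowest with DMSO and highest with both drugs in each line. Of the other members, DDX58, which encodes the RNA sensor RIG-I, was at 83.8, 135, 212 and 271 units in SKBR-3 and 164, 241, 157 and 221 in BT474m1. It was chosen after its values were seen, and its log2 fold change with JQ1 was 1.33 [1.03, 1.66] in SKBR-3 and -0.06 [-0.29, 0.16] in BT474m1. The difference between the lines in this response was not tested.

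**Figure D4:**
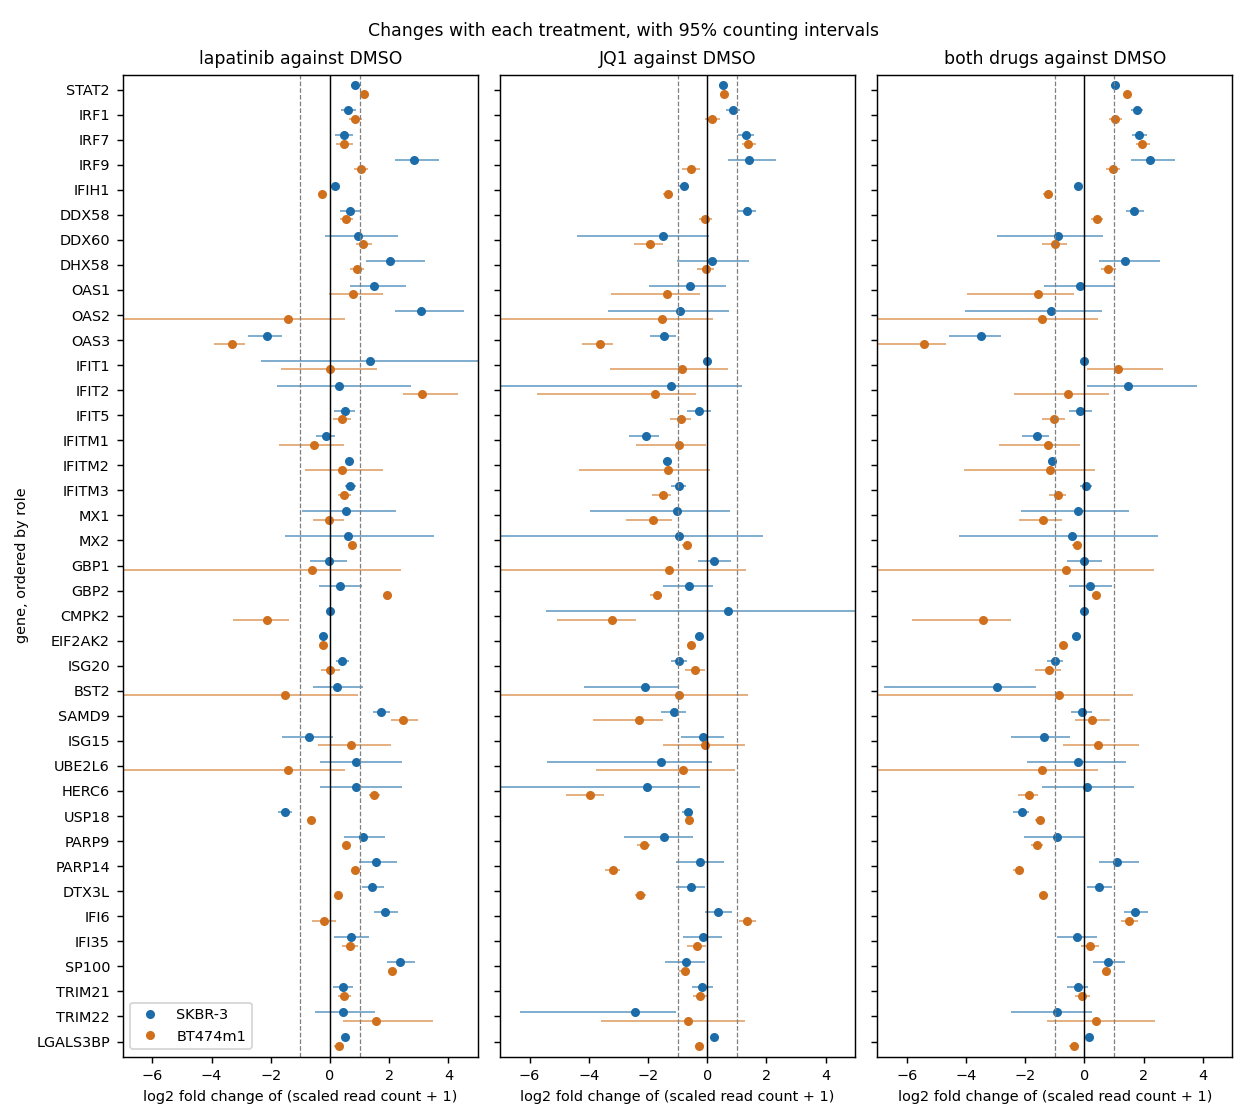
Log2 fold changes against DMSO of the 39 members with lapatinib (left), JQ1 (middle) and both drugs (right) in SKBR-3 (blue) and BT474m1 (orange), with 95% counting intervals (horizontal lines, drawn up to the edge of the axis) and the 2-fold limits (dashed). Medians were 0.62 and 0.49 with lapatinib and -0.61 and -0.88 with JQ1, and the 4 transcription factors at the top lie right of 0 with both drugs.

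With both drugs, members moved in both directions. In SKBR-3, 9 of 39 members were raised and 7 lowered against DMSO, where 10.8% of all genes were raised and 20.8% lowered. In BT474m1, 5 were raised and 16 lowered, against 14.2% and 15.3% of all genes. The members' median was -0.13 in SKBR-3 and -0.71 in BT474m1, and that of all genes -0.08 and 0.00. Of the members counted in BT474m1, IFIT1 among the raised and CMPK2 among the lowered had passed the filter only through a library of this comparison. Raised at least 2-fold in both lines were STAT2, IRF1, IRF7 and IFI6, beside 4.46% of all genes. IRF9 rose by 2.21 [1.56, 3.07] in SKBR-3 and stood at 0.96 [0.73, 1.2] in BT474m1, just inside the limit. STAT2 was at 1.04 [0.93, 1.17] and 1.43 [1.33, 1.52]. With a pseudocount of 10 the counts in BT474m1 were 3 raised and 9 lowered and the median was -0.33, beside 11.3% and 12.5% of all genes at that setting.

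Lowered in both lines with both drugs were OAS2, OAS3, IFITM1, IFITM2 and USP18, beside 8.93% of all genes. USP18, which also binds the interferon receptor and dampens its signal, was at 448, 157, 283 and 102 units in SKBR-3 and at 629, 402, 412 and 222 in BT474m1. Both drugs gave its lowest value in each line, with log2 fold changes of -2.12 [-2.40, -1.88] and -1.5 [-1.67, -1.33]. Its reads are uncertain, because a near-identical copy, USP41, lies on the same chromosome. OAS2 had no more than 8 reads in the libraries concerned, and its intervals included no change in both lines, as did that of IFITM2 in BT474m1, at -1.17 [-4.05, 0.35].

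PARP14 was the only member that changed at least 2-fold in opposite directions in the 2 lines with both drugs. The share of all genes that did so was not counted, so that it is not known whether this is unusual. Its log2 fold change was 1.11 [0.50, 1.83] in SKBR-3 and -2.21 [-2.41, -2.03] in BT474m1, and the difference was not tested. The higher starting level in BT474m1 is given above. Even after the fall, the BT474m1 library with both drugs (150 units) was above every SKBR-3 library.

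**Figure D5:**
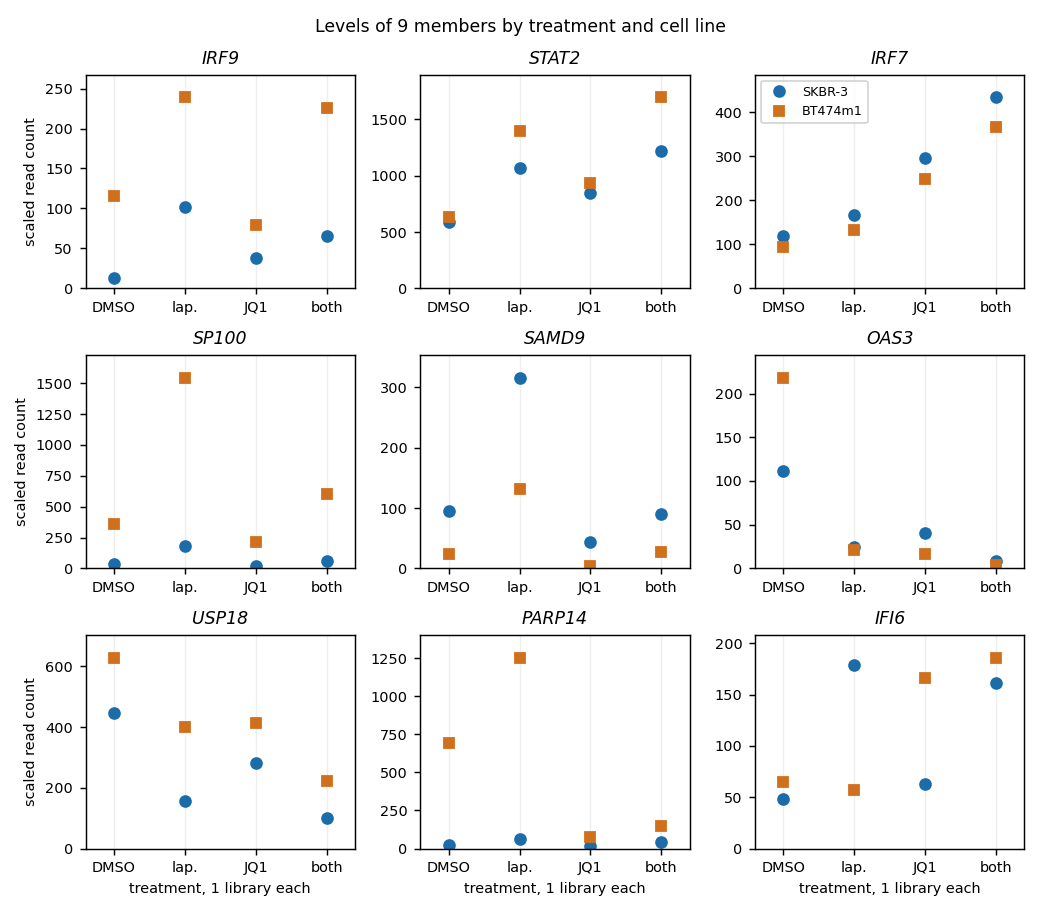
Scaled read count of 9 members in SKBR-3 (circles) and BT474m1 (squares) with DMSO, lapatinib, JQ1 and both drugs, 1 library per point. IRF7 has the same order of libraries in both lines, OAS3 is highest with DMSO in both, and PARP14 falls from 697 to 150 units with both drugs in BT474m1 while it goes from 20.8 to 46.1 in SKBR-3.

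Adding JQ1 to lapatinib lowered 15 of 39 members and raised 4 in SKBR-3, where 16.2% of all genes were lowered and 3.22% raised. It lowered 19 and raised 3 in BT474m1, against 12.5% and 5.20% of all genes. The members' medians were -0.66 and -0.96, beside -0.11 and -0.02 for all genes. Some of these members had passed the filter only through a library of the comparison. They were OAS2 and UBE2L6 among those lowered in SKBR-3, and IFIT2 among the lowered and IFIT1 among the raised in BT474m1. SAMD9 and SP100, raised by lapatinib, were among the 10 members lowered in both lines, SAMD9 by 1.80 and 2.19 on the log2 scale and SP100 by 1.56 and 1.36. Of all genes, 6.31% were lowered in both lines. Of the 10 members, MX2 in SKBR-3 and TRIM22 in BT474m1 had an interval that included no change. IRF9 was not among them, at -0.62 [-1.02, -0.24] and -0.08 [-0.29, 0.12]. IRF7 was the only member raised in both lines, beside 1.14% of all genes. With a pseudocount of 10 the SKBR-3 counts were 9 lowered and 2 raised, beside 10.5% and 1.66% of all genes, and the BT474m1 median was -0.55.

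Adding lapatinib to JQ1 raised 11 members and lowered 3 in SKBR-3, where 9.79% of all genes were raised and 12.3% lowered. In BT474m1 it raised 8 and lowered 1, against 12.4% and 7.27% of all genes. The medians were 0.52 and 0.53, beside 0.00 and 0.06 for all genes. IFIT1, among the 8 raised in BT474m1, had passed the filter only through the library of both drugs. IFIT2, SAMD9, HERC6, SP100 and TRIM22 were raised in both lines and OAS3 was lowered in both, beside 3.60% and 3.95% of all genes. The interval of IFIT2 included no change in BT474m1, and that of TRIM22, an antiviral ubiquitin ligase with no more than 21 reads in any library, included it in both lines. With a pseudocount of 10, 3 members were raised in SKBR-3 and 5 in BT474m1, beside 5.92% and 8.42% of all genes at that setting. OAS3 was then no longer lowered 2-fold in BT474m1, where 5.1% of all genes were lowered. These comparisons share libraries with those above and are not independent of them.

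Where the change with both drugs was set against the sum of the single-drug changes, 3 members in SKBR-3 lay at least 2-fold above the sum and 5 below, beside 3.90% and 7.58% of all genes. In BT474m1, 6 lay above and 2 below, beside 4.72% and 4.73%. IRF9 was below the sum in SKBR-3, by a log2 difference of -2.04, and its value in BT474m1 was 0.45. IRF9 had 18.8 reads in the SKBR-3 DMSO library, and each of the other members past the limit had under 20 reads in 1 or more of the 4 libraries of its line. PARP14, STAT2, IRF1 and IRF7 lay within 2-fold of the sum in both lines.

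Members with the response element were compared with those without it among the 30 that had a promoter window and passed the filter. With lapatinib the 20 that hold a match had a median log2 fold change of 0.50 in SKBR-3 and 0.14 in BT474m1, and the 10 without had 0.87 and 0.82. With JQ1 the medians were -0.67 and -1.13 with a match and 0.19 and -0.65 without. With both drugs they were -0.22 and -0.95 with a match and 0.45 and 0.31 without. The median was lower in the members with a match in these 6 comparisons, while the ranges of the 2 groups overlapped in each, and the difference was not tested. The group without a match held STAT2, IRF1 and IRF9. OAS3 and SAMD9, which carry the same 10 letters in their first match as shown above, went in opposite directions with lapatinib.

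The rest of the pathway was counted in the same way. Of 61 other pathway genes, 36 passed the filter. In SKBR-3, 3 of them were raised and 2 lowered by lapatinib, 1 raised and 3 lowered by JQ1, and 6 raised and 8 lowered by both drugs. These are 8.33% and 5.56%, 2.78% and 8.33%, and 16.7% and 22.2% of the 36, beside 11.1% and 9.44%, 3.75% and 11.8%, and 10.8% and 20.8% of all genes. The corresponding BT474m1 counts were 4 and 2, 4 and 4, and 3 and 5. As shares they are 11.1% and 5.56%, 11.1% and 11.1%, and 8.33% and 13.9%, beside 14.0% and 8.06%, 4.81% and 11.8%, and 14.2% and 15.3% of all genes. Their medians lay between -0.11 and 0.16.

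Among the receptors, IFNGR2, a chain of the interferon gamma receptor, rose by 1.22 [1.02, 1.42] with lapatinib in SKBR-3, and IL28RA, of the type III receptor, changed by -1.58 [-2.12, -1.14] with JQ1 in BT474m1. JAK2 went from 3.30 to 8.43 units with lapatinib in BT474m1, with an interval that included no change. Of the sensors, TLR3, a receptor for double-stranded RNA, went from 16.0 to 120 units with lapatinib and to 0.483 with JQ1 in BT474m1, and did not exceed 6.89 in SKBR-3. TLR9, a DNA receptor, was at 1.97, 17.3, 6.08 and 55.3 units in BT474m1 and at most 7.84 in SKBR-3. SAMHD1, which depletes nucleotides, was lowered by lapatinib in both lines, from 283 to 68.1 units and from 37.7 to 16.8, and with JQ1 it stood at 340 and 118 units. IKBKE, a kinase that activates the IRF factors, was lowered by JQ1 in both lines, at -1.68 [-1.99, -1.40] and -2.64 [-3.23, -2.20]. IRF5 rose by 1.41 [0.97, 1.93] with lapatinib in BT474m1.

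Of the 10 negative regulators, SOCS1, an inhibitor of the JAK kinases, rose with JQ1 in both lines, by 1.89 [1.5, 2.34] and 1.34 [0.96, 1.77]. Its values were 43.7 units with DMSO and 164 with JQ1 in SKBR-3 and 34.4 and 88.4 in BT474m1. PTPN6, a tyrosine phosphatase, changed by 0.87 [0.71, 1.03] and 1.10 [1.0, 1.21] with JQ1. SOCS3 was lowered by lapatinib in SKBR-3, at -1.91 [-3.12, -1.06], and stood at -0.24 [-1.04, 0.52] in BT474m1. NLRX1 was at -0.97 and -1.06 with JQ1, and NLRC5, which controls antigen presentation genes, at -1.0 with lapatinib in BT474m1 and under 6 units in SKBR-3.

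The remaining members are given by their ranges. IFIT5 stayed between 44.9 and 122 units, IFI35 between 24.8 and 143, and TRIM21, an antibody receptor in the cytosol, between 83.2 and 198. The 4 IFIT genes lie inside the span of LIPA on the other strand in the annotation, and LIPA was between 637 and 979 units, while IFIT1 did not exceed 10.5. BST2, which tethers budding viruses, was at most 20.7 units and UBE2L6, the enzyme that conjugates ISG15, at most 11.5. CMPK2, a nucleotide kinase next to RSAD2, went from 34.9 units with DMSO to 7.23, 2.90 and 2.33 with lapatinib, JQ1 and both drugs in BT474m1 and had 0 or 1 reads in SKBR-3. It was chosen after its values were seen. DDX60, a helicase that assists RIG-I, was at 81.2, 179, 20.8 and 40.2 units in BT474m1 and at most 14.5 in SKBR-3.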

How the data were processed

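Samples were grouped by the labels, which give 48 h of treatment, as does a figure legend of the study, whereas its cell culture methods speak of a shorter exposure. Per the labels and the file values, the deposited tables hold a signal for each gene, namely RSEM read counts that the authors scaled to an upper quartile of 1000. The submitters' processing notes name hg19, Picard 1.88, SAMtools 1.2, RSEM, R 3.2.2 and DESeq2 1.12.3, while the methods text names another assembly and counter, so that the build is uncertain. The labels name 2 library kits, and the methods text names the KAPA Stranded mRNAseq kit. Whether strand was used in the counting is not given in the sources used here.

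The value of 1 read was recovered as the common step between values, and 83.8% to 85.2% of values above 0 were whole multiples of it (tolerance 0.02 reads). Because the rest were not whole, no count test was run across genes, and the recovered reads, rounded to whole numbers, serve for the counting intervals. The software was Python 3.11.15 with pandas 2.3.3, numpy 2.4.6, scipy 1.17.1 and, for plots, matplotlib 3.10.9. Genes at 10 units or more in any library were kept. The 95% intervals are Clopper-Pearson intervals on the recovered reads, and cover counting error only, since reads amplified by PCR were not tagged with molecular identifiers. The 11 contrasts were each described without a test, since each group held 1 library. Recovery of the value of 1 read, the 2-fold calls and the intervals were tested on simulated libraries with known changes. The planted changes were all larger than 2-fold and none lay in scarce genes, and all simulated reads were whole numbers. Calls for changes near 2-fold or in scarce genes were therefore not covered. Lengths are of GENCODE canonical transcripts. Promoters are RefSeq windows of GRCh38.p14, matched by Entrez gene ID, and positions locate genes and not reads.

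The members and lists were chosen with earlier results of these data known. Values in all 8 libraries are given for the 4 transcription factors, for up to 5 members that rose and 5 that fell most in both lines with each treatment, for members that moved in opposite directions in the 2 lines, and for the 5 highest and 5 lowest members between the lines, with a minimum of 100 units. Other pathway genes are named where a single drug changed them 2-fold. Any member shown with values that this rule does not take was picked after looking at the data. Alternatives were no filter, a filter at 100, a pseudocount of 10, and scaling to equal totals or by median ratios. Counting only members whose interval excludes no change was added after seeing the data.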

Additional observations from a re-analysis of the deposited data

Results flagged for a closer look

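PARP14 was flagged because its libraries moved in opposite directions in the 2 lines. With both drugs against DMSO its log2 fold change was 1.11 in SKBR-3 and -2.21 in BT474m1, each from 1 library against 1, and the difference was not tested.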

How the results depend on the processing

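The 33 counts and medians of the 39 members were recomputed under 5 alternatives. Scaling to equal totals or by median ratios kept every count within 1.5 times its value. Each median moved by no more than the median half-width of the members' own counting intervals, which is not the counting error of a median. These scalings moved the median of all genes by 0.11 for both drugs against lapatinib in SKBR-3, by -0.15 between the lines and by -0.14 for JQ1 in SKBR-3. With a pseudocount of 10, the lowered members with JQ1 in SKBR-3 went from 12 to 4, those raised and lowered by both drugs against lapatinib there from 4 to 2 and from 15 to 9, and those raised by both drugs against JQ1 from 11 to 3. In BT474m1 it took the members lowered by lapatinib from 5 to 2, those raised and lowered by both drugs from 5 to 3 and from 16 to 9, and, for both drugs against JQ1, those raised from 8 to 5 and those lowered from 1 to 0. The BT474m1 medians went from -0.88 to -0.49 with JQ1, from -0.71 to -0.33 with both drugs and from -0.96 to -0.55 for both drugs against lapatinib. A larger pseudocount shrinks the changes of scarce genes by construction, and the share of all genes called fell too in each comparison named here. A filter at 100, which tests fewer genes, left 28 members, and the share of all genes at that filter follows each count. It took the lowered members in SKBR-3 to 7 with JQ1 (8.6%), 4 with both drugs (18.5%) and 9 with both drugs against lapatinib (12.8%). Those in BT474m1 went to 11 with JQ1 (8.9%) and 1 with lapatinib (7.05%). Those raised by both drugs against JQ1 in BT474m1 went to 5 (8.11%), and those lower in BT474m1 than in SKBR-3 from 9 to 5 (13.8%). Without a filter, which adds 10 scarce members, both drugs against lapatinib raised 7 of 49 in SKBR-3, beside 3.09% of all genes. Against JQ1 they lowered 2 of 49 in BT474m1, beside 6.03%. Counting only members whose interval excluded no change left 2 of 5 lowered by lapatinib in BT474m1, and 21 of 22 counts stayed within 1.5 times. Of 104 changes of at least 2-fold in the 19 members named by the rule, 18 were under 2-fold with a pseudocount of 10, 4 with median ratios and 1 with equal totals, and none changed direction.

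With 1 library per group, leaving out a library would empty a group, and the spread between cultures is unknown. The labels carry no replicate numbers to pair libraries by, and a fit over the 8 libraries with line and drugs as terms was not run. Members with under 20 reads had wide counting intervals.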
